A study of Mus musculus with 12 samples.

Results

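The zinc genes described here are Slc39a8, Slc39a14, Slc30a1, Mtf1, Mt1 and Mt2, the members of the ZIP8-MTF1-metallothionein axis that has been studied in osteoarthritis. They were found by symbol among the 57010 Ensembl gene IDs of the count tables, and each of the 6 matched 1 ID. In GENCODE M21 (GRCm38) they lie at chr3:135825279-135888572 (Slc39a8, plus strand), chr14:70303469-70351425 (Slc39a14, minus strand), chr1:191906767-191913247 (Slc30a1, plus strand), chr4:124802104-124849800 (Mtf1, plus strand), chr8:94179082-94180327 (Mt1, plus strand) and chr8:94172664-94173568 (Mt2, plus strand). The 12 RNA libraries come from primary chondrocytes of the mouse, the cells that make cartilage matrix, and fall into 3 groups of 4. The Control group is labelled only by that word, and what its cells were given is not stated. The WT group received a plasmid labelled wild type, read here as wild-type SIRT5, and the SIRT5F101L group a plasmid for its F101L mutant. SIRT5 is a sirtuin, found largely in mitochondria, that takes acidic acyl groups off lysines of proteins. The cells of every group have a wild-type genotype, and age, sex, donor, plasmid promoter and time after transfection are not given in the labels. Nothing says that libraries came from separate cultures or animals, so a p-value measures the spread between these libraries, which may be technical.

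Zinc enters the cytosol through ZIP transporters (the Slc39a family) and leaves it through ZnT transporters (the Slc30a family). The transcription factor MTF1 senses free zinc with its zinc fingers and binds metal response elements in the promoters of metallothionein genes and of Slc30a1, whose products bind or export the metal. In cartilage, ZIP8 is known for carrying zinc into chondrocytes, where MTF1 then activates genes of matrix-degrading enzymes.

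Promoter sequence is shown for the 3 genes best known as targets of MTF1, because the core of the metal response element can be read in it. The core was searched as TGCACNC and TGCGCNC on both strands, in the 250 bases before the RefSeq start on GRCm38.p6, and matches are in capitals. A match on the minus strand appears as its reverse complement. The windows are chr8:94178839-94179088 for Mt1, chr8:94172368-94172617 for Mt2 and chr1:191906531-191906780 for Slc30a1, all on the plus strand and written 5′ to 3′.
Mt1: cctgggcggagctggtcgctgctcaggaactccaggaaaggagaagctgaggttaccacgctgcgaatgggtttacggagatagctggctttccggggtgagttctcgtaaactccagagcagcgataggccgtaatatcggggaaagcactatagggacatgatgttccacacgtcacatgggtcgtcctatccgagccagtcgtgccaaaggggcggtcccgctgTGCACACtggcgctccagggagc
Mt2: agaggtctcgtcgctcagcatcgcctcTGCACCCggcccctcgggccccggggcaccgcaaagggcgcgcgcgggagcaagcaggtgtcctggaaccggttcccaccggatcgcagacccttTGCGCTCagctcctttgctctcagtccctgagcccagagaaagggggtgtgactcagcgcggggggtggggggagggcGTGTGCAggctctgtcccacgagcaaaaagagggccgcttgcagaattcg
Slc30a1: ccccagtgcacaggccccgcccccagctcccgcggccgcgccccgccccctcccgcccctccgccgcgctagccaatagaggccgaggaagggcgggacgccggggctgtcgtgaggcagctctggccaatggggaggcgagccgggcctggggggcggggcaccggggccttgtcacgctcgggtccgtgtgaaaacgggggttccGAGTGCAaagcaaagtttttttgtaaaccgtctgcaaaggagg
The Mt1 window held 1 match, at -23 from the start, the Slc30a1 window held 1, at -43, and the Mt2 window held 3, at -223, -128 and -50. Of 32851 promoter windows of the same length, 21.4% held at least 1 match and 1.26% held at least 3. The Mtf1 window held 0 matches, and of the 2 windows listed for Slc39a8 1 held a match and the other held 0. The promoter of Slc39a14 was not searched here. A match is a description of the letters in the window and not a measured binding site. Sequence outside these windows, including that after the listed starts, was not searched. The numbers of matches therefore do not rank the promoters as targets of MTF1.

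The libraries held 15095357 to 24242139 counts, so 1 count was worth 0.0413 to 0.0662 CPM (counts per total on a common scale) before scaling. The CPM values of genes given here use library totals scaled by TMM. The first principal component of log2 CPM held 72.7% of the variance and separated Control from both plasmid groups. The second held 5.66% and placed SIRT5F101L replicate 1 (20.3) beside WT replicates 2, 3 and 4 (12.5 to 20.1) and away from the other SIRT5F101L libraries (-23.5 to -17.0), while WT replicate 1 lay between them at -1.07. Sirt5 itself had 9 to 16 counts in Control, 1 to 9 in WT and 9 to 19 in SIRT5F101L libraries. Counts of the plasmid gene thus did not stand above Control in either group labelled as receiving it, which goes against a rise expected from the labels, and the groups are named by their labels throughout. The species and sequence of the plasmid insert, on which its counting as mouse Sirt5 depends, are not given in the sources used here. All 2414 IDs on the X chromosome were listed at 0, and none of the 6 zinc genes lies there. Chondrocyte markers (Col2a1, Acan, Sox9, Col9a1, Col11a1, Matn1 and Comp) were all detected, and summed to 8907 to 11215 CPM in Control, 2708 to 2827 in WT and 2193 to 2446 in SIRT5F101L libraries. Of these 7 markers 6 were called lower in each plasmid group, and Acan was called higher in WT (0.47) and not called in SIRT5F101L (0.10). Among all tested genes, 28.1% were called lower and 28.7% higher in WT, and 30.7% lower and 30.0% higher in SIRT5F101L. Between the plasmids none of the 7 was called. The differences were -0.55 for Col9a1, -0.37 for Acan (edgeR adjusted p = 0.0942 for both) and -0.34 for Col2a1 (0.125), and they were called in 5, 6 and 5 of 21 alternatives, the fit without SIRT5F101L replicate 1 among them for each. Fibroblast or synovial markers (Col1a1, Col3a1, Pdgfra, Thy1 and Prg4) summed to 18293 to 21752, 7486 to 8568 and 7709 to 8637 CPM, with 2 called higher and 3 lower. Osteoblast markers summed to 17.0 to 23.8, 4.11 to 4.64 and 3.51 to 5.17 CPM, and endothelial markers to at most 3.04 CPM, with none of 3 called. The part of these shifts in the results below was not tested. In bulk RNA, fewer cells of a type and less RNA per cell cannot be told apart.

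Both zinc importers of the axis rose in both plasmid groups, with the exporter Slc30a1, the sensor Mtf1 and the buffer Mt1 rising less. By edgeR's quasi-likelihood test, 5 of the 6 genes were called higher in WT and 5 of 6 in SIRT5F101L, at an adjusted p under 0.05 over the 14253 genes tested. The background is wide, since 56.8% of all tested genes were called in WT and 60.7% in SIRT5F101L. By direction, 28.7% were called higher in WT and 30.0% in SIRT5F101L, and 28.1% and 30.7% were called lower. The same 5 genes had no overlap between Control and each plasmid group, as had 53.5% of all tested genes in WT and 51.3% in SIRT5F101L. The median log2 fold change of the 6 genes was 1.27 and 1.11, beside -0.01 and -0.02 over all genes tested. Both comparisons use the same 4 Control libraries. Mt2, at 1 to 30 counts per library, was not called.

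Slc39a8 (ENSMUSG00000053897), which encodes ZIP8, had the largest fold change of the 6 genes. Its levels were 4.82, 4.61, 6.28 and 4.70 CPM in Control replicates 1 to 4, from 83 to 118 counts. In WT they were 39.6, 39.5, 37.7 and 42.0 CPM, and in SIRT5F101L 41.5, 42.8, 41.1 and 42.9 CPM. Every plasmid library was far above every Control library, and the plasmid groups overlapped each other. The mean rose from 5.10 ± 0.792 CPM (SD, n = 4) to 39.7 ± 1.77 in WT, a 7.77-fold change (log2 2.96, SE 0.09, edgeR adjusted p = 6.66e-16). In SIRT5F101L it reached 42.1 ± 0.904 CPM, 8.23-fold above Control (log2 3.04, SE 0.09, edgeR adjusted p = 4.14e-16). In each comparison 98.5% of tested genes had a lower fold change.

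Slc39a14 (ENSMUSG00000022094) encodes ZIP14, the closest relative of ZIP8, which carries zinc, iron and manganese and is known to be raised by interleukin-6 in liver. It stood at 87.6, 77.4, 91.3 and 89.4 CPM in Control, at 333.8, 303.1, 316.5 and 294.7 in WT and at 302.5, 326.6, 332.3 and 345.9 in SIRT5F101L. Again no plasmid library overlapped a Control library, while the plasmid groups covered much the same range. The rise was 3.61-fold in WT (86.4 ± 6.24 to 312 ± 17.1 CPM, log2 1.85, SE 0.07, edgeR adjusted p = 3.95e-15). It was 3.78-fold in SIRT5F101L (327 ± 18.1 CPM, log2 1.92, SE 0.07, edgeR adjusted p = 2.16e-15).

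The balance between the importers moved with the plasmids. Slc39a14 had 14.5 to 19.0 counts for each Slc39a8 count in Control libraries, 7.01 to 8.43 in WT and 7.28 to 8.09 in SIRT5F101L. The plasmid libraries thus lay below all Control libraries in this ratio of counts, which is not corrected for length. Myeloid cells are another known source of Slc39a8. The macrophage markers Ptprc, Adgre1, Csf1r, Cd68 and Lyz2 were each called lower in both plasmid groups. Among all tested genes 28.1% were called lower in WT and 30.7% in SIRT5F101L. Itgam was listed at 0, a level that is uncertain because 68.7% of its exon sequence is shared with Gm49368. The summed level of the macrophage markers was 152.7 to 184.9 CPM in Control, 80.7 to 93.0 in WT and 81.2 to 103.6 in SIRT5F101L. The part of myeloid cells in the Slc39a8 levels was not tested.

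Slc30a1 (ENSMUSG00000037434) encodes ZnT1, the zinc exporter of the plasma membrane and a classical target of MTF1. Control libraries were at 14.9, 16.7, 15.3 and 18 CPM, WT libraries at 24.3, 21.7, 26.1 and 24.4, and SIRT5F101L libraries at 25.2, 24.5, 21.6 and 20.5. The rise was small but without overlap: 1.49-fold in WT (16.2 ± 1.40 to 24.1 ± 1.83 CPM, log2 0.57, SE 0.09, edgeR adjusted p = 3.18e-05). In SIRT5F101L it was 1.41-fold (23.0 ± 2.27 CPM, log2 0.50, SE 0.09, edgeR adjusted p = 0.000136). In GENCODE M21, 8.92% of its exon sequence lies opposite 1700034H15Rik, which had 4 to 24 counts per library.

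Mtf1 (ENSMUSG00000028890), the zinc sensor, changed about as little. It was at 24.1, 23.0, 24.7 and 23.8 CPM in Control, a spread of 0.688 CPM (SD) around 23.9. WT libraries reached 36.8, 32.5, 32.4 and 34.5 CPM, and SIRT5F101L libraries 29.4, 35.4, 35.1 and 31.6. All 8 plasmid libraries exceeded all 4 Control libraries. The fold change was 1.43 in WT (log2 0.51, SE 0.08, edgeR adjusted p = 1.40e-05), while SIRT5F101L stood 0.46 above Control on the log2 scale (SE 0.08, edgeR adjusted p = 4.34e-05). The exons of 1110065P20Rik on the other strand cover 8.09% of its exon sequence. That gene had 248 to 393 counts in Control, 200 to 237 in WT and 104 to 222 in SIRT5F101L libraries. The part of this overlap in the Mtf1 counts was not tested. With a trend on transcript length removed, the Mtf1 log2 fold change was 0.25 in SIRT5F101L (adjusted p = 0.00366), and the call held.

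Mt1 (ENSMUSG00000031765), which encodes a small cysteine-rich protein that binds zinc, copper and cadmium, had the highest level per length of the 6 genes, given below. It was at 672.6, 719.1, 690.7 and 664.0 CPM in Control, with a coefficient of variation of 3.55%. In WT it was at 1489, 1921, 1728 and 1868 CPM, and in SIRT5F101L at 2242, 2099, 1629 and 1535. The groups with plasmid did not overlap Control, but they spread more, with coefficients of variation of 11% in WT and 18.5% in SIRT5F101L. The mean rose from 686.6 ± 24.4 to 1751 ± 193 CPM in WT, 2.55-fold (log2 1.35, SE 0.10, edgeR adjusted p = 7.33e-10). In SIRT5F101L it was 1876 ± 347 CPM, 2.73-fold above Control (log2 1.45, SE 0.10, edgeR adjusted p = 2.33e-10). Mt1 took 0.0635% to 0.0713% of all counts in Control libraries and 0.153% to 0.224% in plasmid libraries.

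Mt2 (ENSMUSG00000031762) encodes the second widely expressed metallothionein and lies beside Mt1 on chromosome 8, with 5513 bases between them in GENCODE M21. Its counts were 7, 7, 10 and 10 in Control, 7, 12, 27 and 30 in WT and 24, 1, 29 and 9 in SIRT5F101L. These are low and scattered values that overlap between all groups. Mt1 had 1108 to 32309 counts for each Mt2 count. The log2 fold change of Mt2 was 1.18 in WT (SE 0.56, edgeR adjusted p = 0.0776) and 0.77 in SIRT5F101L (SE 0.57, edgeR adjusted p = 0.254). Neither comparison passed the test. Mt2 passed edgeR's expression filter only through plasmid libraries, where its counts are highest. Its tests, and the calls in alternative fits, are therefore no independent support of a rise. The WT call depended on the fit: over 20 alternatives its adjusted p ran from 0.0104 to 0.218, and it was under 0.05 in 6, among them the fit without WT replicate 1 (log2 1.49). Exons of Gm45774 on the opposite strand cover 73.5% of Mt2 exon sequence in GENCODE M21, and Gm45774 had 0 to 6 counts per library. For Mt1 the overlap was 0%. Reads from a gene and its antisense partner cannot be told apart without strand, and how the authors' counting treated such reads is not given in the sources used here. The low Mt2 counts are therefore uncertain as a measure of its expression, and the part of the overlap in them was not tested.

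**Figure D1:**
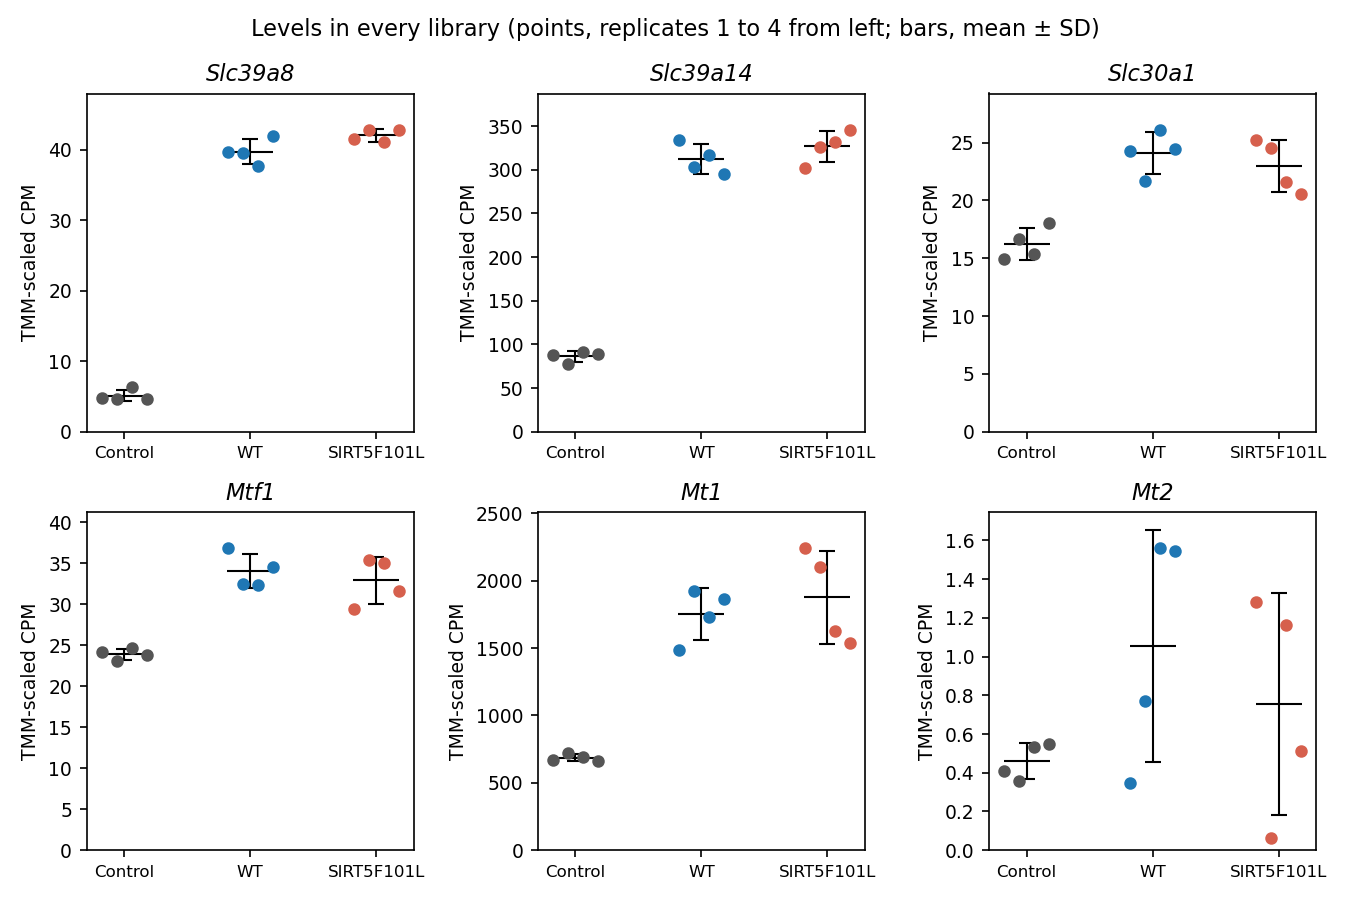
TMM-scaled CPM of each of the 6 genes (vertical axes, linear from 0) in Control, WT and SIRT5F101L libraries; points are the 4 libraries of a group and bars the mean ± SD. For Slc39a8, Slc39a14, Slc30a1, Mtf1 and Mt1 all plasmid libraries lie above all Control libraries, while Mt2 is at 0.0650 to 1.56 CPM throughout and its groups overlap.

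Levels of different genes were set in order only per length, as CPM per kb of the longest coding transcript in GENCODE M21. In Control the order was Mt1 (633 ± 22.5 CPM per kb), Slc39a14 (17.5 ± 1.27), Mtf1 (3.13 ± 0.0902), Slc30a1 (3.10 ± 0.268) and Slc39a8 (1.44 ± 0.224), with Mt2 listed at 0.900 ± 0.184. Mtf1 and Slc30a1 did not differ beyond their spread. In WT, Slc39a8 (11.2 ± 0.50 CPM per kb) lay above Slc30a1 (4.60 ± 0.349) and Mtf1 (4.46 ± 0.275), and below Slc39a14 (63.3 ± 3.47) and Mt1 (1614 ± 178). The order was the same in SIRT5F101L, where Slc39a8 was at 11.9 ± 0.256 and Slc39a14 at 66.3 ± 3.68 CPM per kb. The importer Slc39a8 thus passed the exporter Slc30a1 in per-length level in both plasmid groups. The value for Mt2 carries the overlap named above, and lengths depend on which transcript is expressed.

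The mutant was then set against the wild-type plasmid. None of the 6 genes was called by edgeR, where 0.0421% of all genes tested were (0.0281% higher and 0.0140% lower), and 0 were called by DESeq2. The lowest unadjusted p among the 6 was 0.308, for Slc39a14, so 0 had an unadjusted p under 0.05, as 11.9% of all genes tested had. No gene of the 6 had groups that did not overlap, which 4.02% of all genes tested had. The log2 difference was 0.08 for Slc39a8, with an approximate 95% interval from -0.07 to 0.24, and 0.07 for Slc39a14, from -0.06 to 0.19. It was -0.07 for Slc30a1 (-0.25 to 0.11), -0.05 for Mtf1 (-0.20 to 0.10) and 0.10 for Mt1 (-0.10 to 0.30). For Slc39a8, Slc39a14 and Mt1 both bounds are far smaller than the change from Control. For Mt2 the interval, -1.42 to 0.59, bounds little.

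Leaving out 1 library did not bring a call between the plasmids for any of the 6 genes. Without SIRT5F101L replicate 1, the library that stood apart, the log2 difference of Mt1 was 0.00 and that of Mtf1 was 0.00, while Slc39a14 was at 0.10 and Slc30a1 at -0.12. For Mt1 the highest plasmid library was SIRT5F101L replicate 1, at 2242 CPM, and for Mtf1 it was at 29.4 CPM the lowest. Without that library 2213 of all genes tested were called between the plasmids.

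**Figure D2:**
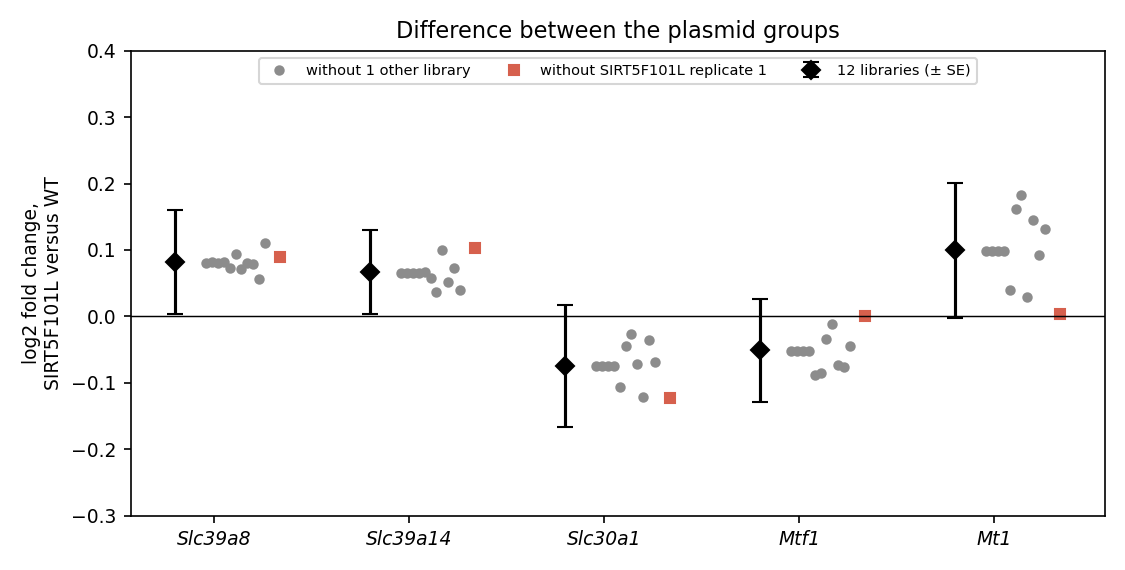
Log2 fold change of SIRT5F101L against WT (vertical axis) for 5 of the zinc genes; diamonds are the fit of all 12 libraries ± SE, grey points the fits without 1 other library and squares the fit without SIRT5F101L replicate 1. All points lie between -0.12 and 0.18, and Mt1 and Mtf1 move to 0.00 without SIRT5F101L replicate 1.

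Of 12 further ZIP genes 7 were tested, of which 3 were called higher and 1 lower in each plasmid group, a share near the 56.8% and 60.7% called among all tested genes. They had median log2 fold changes of 0.00 in WT and -0.04 in SIRT5F101L. Slc39a10, a plasma membrane importer whose gene is known to be held down by MTF1 in liver, rose from 47.3 ± 3.20 to 126 ± 2.67 and 135 ± 11.9 CPM (SD, n = 4). Its log2 fold changes were 1.42 and 1.52 (edgeR adjusted p = 6.06e-13 and 1.90e-13). Slc39a6 rose by 0.50 in both groups, and Slc39a13, a transporter of the Golgi and early secretory pathway whose loss causes a connective tissue disorder, by 0.59 and 0.43. Slc39a3 was lower by the same test, at -0.28 and -0.45. The other tested ZIP genes, Slc39a1, Slc39a9 and Slc39a11, were not called and ran from -0.11 to 0.00. In SIRT5F101L, Slc39a1 was called lower in 3 of 21 alternatives, among them the fit without SIRT5F101L replicate 1, and Slc39a9 in 1, with the length trend removed (-0.17, adjusted p = 0.00621). Slc39a5 was listed at 0 in all 12 libraries. Slc39a7, named after its values were seen, had at most 4 counts, and 80.7% of its exon sequence is shared with Gm20427, so its level is uncertain.

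Of 9 further ZnT genes 5 were tested. In WT 1 was called higher and 1 lower, and in SIRT5F101L 2 higher and 1 lower, where 56.8% and 60.7% of all tested genes were called. Slc30a9 rose by 0.34 and 0.39, from 108 ± 1.14 to 136 ± 2.92 and 141 ± 7.68 CPM, and Slc30a6, of the secretory pathway, was lower by log2 values of -0.36 and -0.33. Slc30a4 was called in SIRT5F101L (0.32, edgeR adjusted p = 0.00111) and not in WT (0.15, edgeR adjusted p = 0.0997, and 0.0254 at the lowest over its alternatives). The difference itself, 0.17, had an edgeR adjusted p of 0.396, and 0.0111 without SIRT5F101L replicate 1. Slc30a5 and Slc30a7 were not called, and Slc30a8 and Slc30a10 had at most 1 count in any library.

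**Figure D3:**
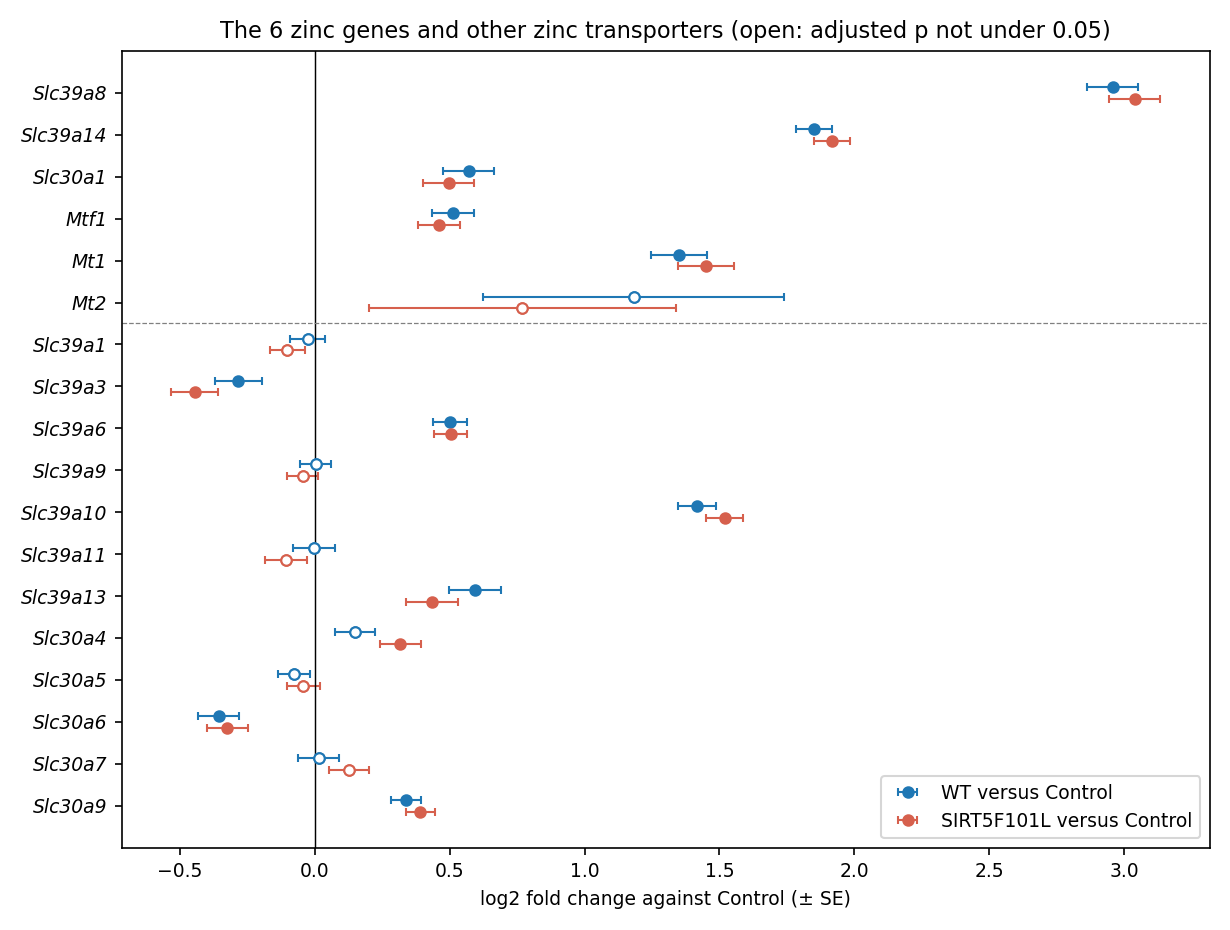
Log2 fold change against Control ± SE (horizontal axis) of the 6 zinc genes, above the dashed line, and of the 12 other tested ZIP and ZnT genes, in WT (blue) and SIRT5F101L (red); open points have an adjusted p not under 0.05. Slc39a8 and Slc39a14 lie furthest right, and of the other transporters Slc39a10 alone passes 1.

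The brain-type metallothionein Mt3, in the same gene cluster, appeared at low counts. It had 0, 0, 0 and 3 counts in Control, 15, 8, 9 and 12 in WT and 14, 19, 28 and 8 in SIRT5F101L. Every plasmid library lay above every Control library. Per total count, WT held 15.8 times as many as Control (exact Clopper-Pearson 95% interval 5.07 to 79.6) and SIRT5F101L 23.5 times as many (7.72 to 116.8), intervals that cover counting error only. Mt3 passed the expression filter only through the plasmid groups, where it is high, so its values are given without the test. All 3 Control counts of Mt3 came from Control replicate 4. Without that library Control was at 0 and the size of the rise has no upper limit. Mt4, of stratified epithelium, had at most 3 counts in any library.

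The matrix-degrading enzymes that ZIP8 and MTF1 are known to raise in cartilage went in different directions. Of 5 genes 4 were tested, and 2 were called higher and 1 lower in each plasmid group. Among all tested genes 28.7% and 30.0% were called higher in WT and SIRT5F101L, and 28.1% and 30.7% lower. Mmp3 (stromelysin) rose from 16.3 ± 1.55 CPM (SD, n = 4) to 1534 ± 147 and 1882 ± 163, with log2 fold changes of 6.55 and 6.85 (edgeR adjusted p = 3.28e-20 and 1.90e-20). Mmp13 (collagenase 3) rose by 2.56 and 2.82. Adamts5, an aggrecanase, was lower at -0.45 and -0.27 (edgeR adjusted p = 8.13e-05 and 0.00636), and at -0.54 in SIRT5F101L with the length trend removed. Mmp12 was not called at -0.25 and 0.09. Mmp9 had at most 11 counts in any library and was not tested. Between the plasmids none was called, but without SIRT5F101L replicate 1 Mmp3 (0.24), Mmp13 (0.26) and Adamts5 (0.22) were called higher with the mutant.

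Other genes known to answer to MTF1 went in both directions. All 5 were called in each plasmid group, 1 higher and 4 lower, with median log2 fold changes of -0.36 and -0.32. Among all tested genes 56.8% were called in WT and 60.7% in SIRT5F101L, with 28.1% and 30.7% called lower. Gclc, of glutathione synthesis, rose by 1.52 and 1.62. Slc40a1, the iron exporter ferroportin, was lower by log2 values of -2.53 and -2.22, from 22.5 ± 0.130 CPM to 3.90 ± 0.305 and 4.82 ± 0.935. Selenow (-0.36 and -0.37), Ndrg1 (-0.55 and -0.29) and Csrp1 (-0.27 and -0.32) were also lower. Gclc is counted again among the oxidative stress genes below, and Slc40a1 again among the iron genes.

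Genes of signals known to act on the members were followed beside them. Of the cytokine list (Il1b, Il6, Tnf, Nfkb1, Nfkbia, Stat3 and Socs3) 5 were tested and all 5 were called higher in both groups. Among all tested genes 28.7% were called higher in WT and 30.0% in SIRT5F101L. Il6 went from 1.67 ± 0.336 to 75.5 ± 4.34 and 94.2 ± 4.0 CPM (log2 5.50 and 5.82), and Socs3, a target of its signal, rose by 1.21 and 1.15. Il1b and Tnf did not pass the expression filter and were not tested. Il1b had at most 7 counts in any library. Tnf, the gene of tumour necrosis factor, went the other way, with 17, 16, 19 and 6 counts in Control, 0, 1, 5 and 0 in WT and 1, 2, 5 and 0 in SIRT5F101L, and no plasmid library overlapped Control. In the fit with no filter beyond 1 count Tnf was called lower by edgeR (log2 -3.12, adjusted p = 0.000192 in WT, and -2.88, adjusted p = 0.000333 in SIRT5F101L). All 6 genes of the oxidative stress response governed by NRF2 were called higher in both groups, beside the same 28.7% and 30.0% of all tested genes. Their medians were 1.02 and 1.01, and among them were Nqo1 (1.97 and 2.0), Srxn1 (1.05 and 1.03) and Txnrd1 (0.99 in both). They include Gclc, already counted among the MTF1 targets, and Hmox1, also counted among the iron genes. Of 5 tested glucocorticoid-responsive genes 2 rose and 1 was lower in each group, a share near that of all tested genes (56.8% and 60.7%). Fkbp5, a standard marker of glucocorticoid signalling, was at 0.04 and -0.02 and was not called. Sgk1 rose by 0.85 and 0.90, and Zbtb16 was lower at -2.16 and -2.03, from 11 to 18 counts in Control to 0 to 5 in plasmid libraries. Zbtb16 passed the expression filter only through Control, where it is high. Its call, the 1 lower in that count, is therefore no independent support of a fall. Tsc22d3, on the X chromosome, was listed at 0. Which of these signals bears on Slc39a8 or Mt1 was not tested.

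ZIP8 and ZIP14 also carry iron and manganese, so the genes of iron handling were read alongside. Of 10 tested genes 5 were called higher and 2 lower in WT, and 6 higher and 3 lower in SIRT5F101L, where the call of Ireb2 (0.26, edgeR adjusted p = 0.0215) was lost in 6 of its alternatives. Among all tested genes 56.8% and 60.7% were called. Tfrc, the transferrin receptor, rose by 1.77 and 1.74, and Slc11a2, the divalent metal transporter DMT1, by 0.57 and 0.66. Cp (ceruloplasmin) rose by 2.50 and 2.79 and Fth1 (ferritin heavy chain) by 1.01 and 1.09. The ferritin light chain gene Ftl1 was lower in SIRT5F101L (-0.47, edgeR adjusted p = 7.31e-05) and not called in WT (-0.13, edgeR adjusted p = 0.185, and 0.0355 without SIRT5F101L replicate 1). The Ftl1 difference between the plasmids, -0.34, had an edgeR adjusted p of 0.216 and was called in 3 of 21 alternatives, among them the fit without SIRT5F101L replicate 1 (-0.45, adjusted p = 5.54e-06). Its level is uncertain, as 34.6% of its exon sequence is shared with Gm10252 and Gm22133. Steap3, an endosomal ferrireductase, was lower at -1.33 and -1.45. Outside the cell, S100a8, a subunit of the zinc-binding protein calprotectin, was at 4 to 12 counts in Control libraries (0.386 ± 0.161 CPM) and at 48.6 ± 6.65 CPM in WT and 57.3 ± 15.9 in SIRT5F101L, without overlap. It passed the expression filter only through the plasmid groups, so its values are given without the test. Its partner S100a9 was listed at 0 in all 12 libraries.

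**Figure D4:**
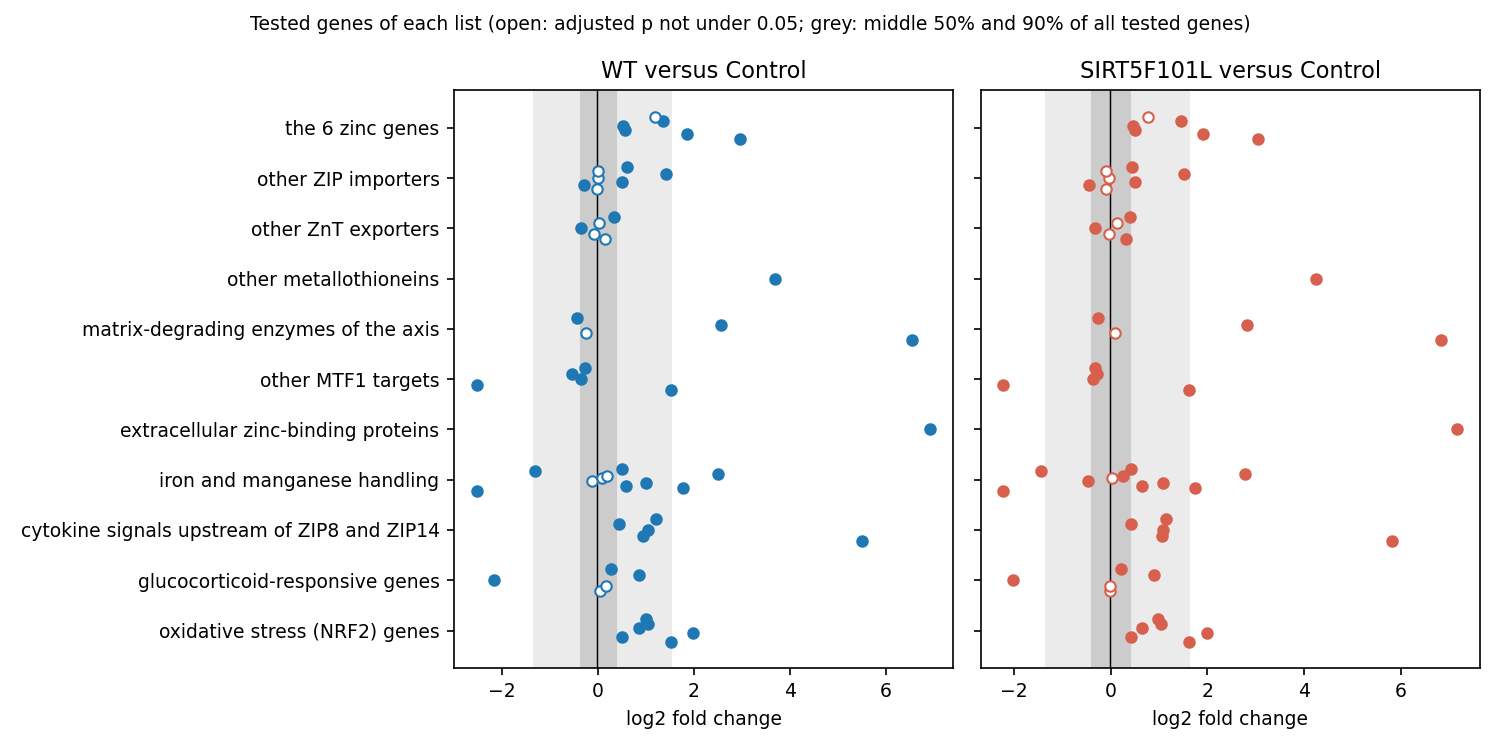
Log2 fold change against Control (horizontal axes) of the tested genes of each list in WT (left) and SIRT5F101L (right); filled points were called at an adjusted p under 0.05, and grey bands hold the middle 50% and 90% of all tested genes. Slc39a8 and Slc39a14 lie beyond the 90% band in both panels, and the list of other MTF1 targets lies on both sides of 0.

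Genes most like each member over the 12 libraries were found by the root mean square difference of centred log2 CPM. For Slc39a8 they were Nt5e (0.12), Spp1 (0.12) and Uap1 (0.14), and for Slc39a14 Bdnf (0.07), Slco3a1 (0.07) and Cd44 (0.07). Spp1, which encodes osteopontin, changed by 2.91 and 2.99 against Control, close to the values of Slc39a8. The nearest genes were Rgs2 (0.07), Atg7 (0.09) and Hspd1 (0.09) for Slc30a1 and Tent4b (0.05), Purb (0.07) and Foxk2 (0.07) for Mtf1. Mt1 was nearest to Cd24a (0.12), Prdx1 (0.12), a peroxiredoxin, and Nrn1 (0.13). No gene came close to Mt2, whose nearest, Pold4, differed by 0.67. The measure follows mainly the step between Control and the plasmid groups, which many genes share.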

How the data were processed

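Each library has 1 table, without a header, in which the authors deposited raw counts for Ensembl gene IDs. The submitters' processing notes name FastQC 0.11.9, HISAT2 2.2.1, HTSeq 2.0.2 and DESeq2 1.38.3 and the builds GRCm39 and mm39, without roles. The annotation and the strand setting are not given in the sources used here. Per the labels' protocols, mRNA was captured by its poly(A) tail and libraries were made with a NEBNext Ultra kit and sequenced as paired ends. As background, the kit of that name without the Directional label does not mark strand. Of the 57010 IDs, 52029 received a symbol from a table of gene names. GENCODE M21 (GRCm38) gave lengths and exon overlaps, and RefSeq (GRCm38.p6) gave promoters. Both differ in build from the counts.

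edgeR 4.0.16 (R 4.3.3) was run on all 12 libraries after TMM scaling, keeping the 14253 genes that its default filter passes by group, with 1 mean per group, with 9 residual degrees of freedom. Quasi-likelihood tests were 2-sided, with Benjamini-Hochberg adjustment over all genes tested and a threshold of 0.05. CPM values are TMM-scaled, and a standard error is the log2 fold change divided by the square root of F. Libraries had 15095357 to 24242139 counts. The biological coefficient of variation was 9.18%. No 2 libraries were identical. The pipeline was tested on simulated data. Near copies were sought with BLAST 2.17.0.

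The 6 genes and the lists were chosen with earlier results of these data known. The named genes are the 6, up to 4 members of each list by adjusted p (others are given beside them to complete a list and were named after their values were seen), list members with at most 3 counts in every library, and the 3 genes nearest in profile (mean of at least 5 CPM). Alternatives were RLE and upper-quartile scaling, 2 other filters, a robust prior, fits of 8 libraries, DESeq2 1.42.0, a length trend (loess, span 0.5) as offset and each library left out. Leaving out WT replicate 1 with SIRT5F101L replicate 1 was added after seeing the data.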

Additional observations from a re-analysis of the deposited data

Results flagged for a closer look

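Libraries far from the other 3 of their group were sought by Dixon's ratio of gap to range, in 66 measures by group, where chance gives about 3.30, and 5 were found. Slc39a8 stood at 6.28 CPM in Control replicate 3, against 4.61 to 4.82 in the other Control libraries. Without that library its rise remained called in both plasmid groups. The summed matrix-degrading enzymes stood at 2481 CPM in WT replicate 4, against 2150 to 2197. The summed chondrocyte markers stood at 8907 CPM in Control replicate 2, against 10880 to 11215. The summed osteoblast markers were at 4.11 CPM in WT replicate 4 (4.56 to 4.64 in the others), and the summed endothelial markers at 3.04 CPM in Control replicate 3 (2.09 to 2.24).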

How the results depend on the processing

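The calls of Slc39a8, Slc39a14, Slc30a1, Mtf1 and Mt1 against Control kept direction and threshold in all 21 alternatives run for each comparison. Their log2 fold changes ran from 2.91 to 3.16 for Slc39a8, 1.79 to 1.96 for Slc39a14, 0.38 to 0.62 for Slc30a1, 0.25 to 0.54 for Mtf1 and 1.30 to 1.60 for Mt1. Between the plasmids no alternative called any of the 6 genes. With WT replicate 1 and SIRT5F101L replicate 1 both left out, chosen after seeing the data, Mt1 turned to -0.066 and Mtf1 to 0.042. The count of all genes called between the plasmids, 6, became 43 with DESeq2, 354 with no filter beyond 1 count, 2 with only the 8 libraries, 2 with a robust prior and 17 with the length offset. It ran from 0 to 2213 when 1 library was left out, the highest without SIRT5F101L replicate 1, and was 2882 without both libraries. The cause was not tested. Mt2 fell under the expression filter or got no value in some alternatives. Counting error weighs on genes with at most 30 counts in a library, such as Mt2, Mt3, Tnf and Zbtb16. The replicate numbers used here follow the order in which the samples are listed and pair nothing between groups. No paired analysis was run, because the labels give no replicate number shared between groups.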
